A study of Rattus norvegicus with 18 samples.

Results

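Expression was described in 6 medullary thyroid carcinomas from 18-month-old rats that carried the germline Cdkn1b mutation of MENX in heterozygous form. These tumours made up 6 of the 18 arrays of the study and were taken by the age and genotype in their labels. All were untreated and came from animals with a Sprague–Dawley white eye/Wistar–Kyoto background kept under specific-pathogen-free conditions. Each array carried its own animal code, so the spread below is that between tumours of different animals. The labels gave no sex, litter, array date, tumour size or tumour content for these animals. The other 12 arrays of the study, 6 of heterozygous and 6 of homozygous mutants at 9 months, entered no comparison here. The 6 tumours are called tumour 1 to tumour 6 after the replicate numbers in the labels, and these numbers carry no order.

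Medullary thyroid carcinoma arises from the C cells of the thyroid, neuroendocrine cells that lie between the follicles and secrete calcitonin, a hormone that lowers blood calcium. C cells sense calcium through the calcium-sensing receptor and package peptides into granules with granins and prohormone convertases. The surrounding follicular cells make thyroglobulin and thyroid hormone, and the parathyroid glands and the neck muscles lie next to the thyroid. Cdkn1b encodes p27Kip1, an inhibitor of cyclin-dependent kinases, and rats that carry the MENX mutation develop several kinds of neuroendocrine tumour.

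Levels were log2 array signals of 14506 genes with a single symbol, and where a gene had several probe sets its brightest over the 6 tumours stood for it. Array medians over all probe sets lay between 7.55 and 7.65. The correlation of a pair of arrays across genes lay between 0.951 and 0.990. On the first principal component of all genes, which held 60.6% of the variance among the 6 arrays, tumours 1, 2 and 3 lay at -43.3, -20.3 and -19.7, tumour 6 at 3.84 and tumours 5 and 4 at 34.3 and 45.3. The second component held 15.9% and set tumour 6, at 33.4, against the other tumours between -17.3 and 1.58. The third held 11.4% and ran between -20.3 in tumour 1 and 24.9 in tumour 3. No array stood apart in its median, and the tumours were spread over several directions rather than forming a uniform set. Pearson's r over the 6 tumours served only to group genes, and no value of it is given. Genes that varied together are described by their levels in each tumour.

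Some genes known from C cells were among the brightest of the array, but such brightness was not limited to them. The follicular gene Tg, with a mean of 13.60, ranked above Pcsk2 and Casr, and Casr is on the parathyroid list too. The C cell list, with 28 genes on the array, had 7 with a mean below the median of all genes. The label of the tumours was not tested by these levels. Calca, the gene of calcitonin and alpha-CGRP, had the highest mean of all genes, at 14.06 ± 0.05 (SD, n = 6). Its level was 14.01, 14.10, 14.12, 14.04, 14.02 and 14.09 in tumours 1 to 6, so the tumours barely differed. Pam, the enzyme that amidates the end of peptide hormones including calcitonin, ranked among the 20 highest means at 13.82 ± 0.27. Pcsk2, a prohormone convertase, had 13.44 ± 0.19, and Casr, the calcium-sensing receptor, had 13.44 ± 0.18. Gnas, the stimulatory G protein subunit of the cAMP pathway, had 13.81 ± 0.12. The brightest probe set of the array averaged 14.45, and whether signals this close to it were compressed was not tested.

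The other genes among the 20 highest means were mostly housekeeping genes. They comprised the chaperones Hspa8, Hspa5 and Pdia3, the ribosomal proteins Rps29, Rps4x and Rps20, the elongation factor Eef1a1, the glycolytic enzyme Gapdh, the cytoskeletal actin Actb, the MHC class I light chain B2m, the iron store Ftl1, the ubiquitin-conjugating enzyme Ube2d2, the lysosomal protease Ctsb and Rpph1, the RNA of ribonuclease P. Their means ran between 13.38 for Rpph1 and 13.83 for Hspa8. Signal on this array depends on the probes as well as on the transcript, so the ranks order array signals and not numbers of transcripts.

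Tg, which encodes thyroglobulin and is made by follicular cells rather than C cells, also ranked among these 20 genes, and it was the one of them that varied widely. Its level was 11.08 in tumour 1, against 13.97, 13.99, 14.34, 14.31 and 13.94 in tumours 2 to 6. The mean was 13.60 ± 1.25 (SD, n = 6), and the SD was 0.20 without tumour 1. The other 19 genes had SDs of at most 0.27. In RNA from bulk tumours, fewer cells of a type and less RNA per cell cannot be told apart.

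The most even genes of the brightest 10% were genes of basic cell functions. Cyb5a (cytochrome b5), Surf2, Hspa8, Agtpbp1, Cuta, Psenen (a subunit of gamma-secretase), Ube2d3, Cdc42 (a small GTPase of cell polarity), Mdh2 (mitochondrial malate dehydrogenase) and Dexi had SDs between 0.02 and 0.04. Mdh2, for example, stayed between 12.14 and 12.23 in all 6 tumours. These 10 were picked for their small SD, so their evenness is a description.

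Most genes varied little among the tumours and a small share varied widely. The median SD over all genes was 0.17, with quartiles of 0.11 and 0.29, and 2563 genes (17.7%) had an SD under 0.1. An SD of at least 1, the value taken here to call a gene variable, was reached by 372 genes (2.56%), and 18 genes reached 2. Gpc4, a heparan sulfate proteoglycan, lay just inside this limit at 1.0004, and Adgrb3, an adhesion receptor, just outside at 0.9988. Of the 372 variable genes, 19 had a mean among the top 10% of all genes and 149 had a mean below the median of all genes, 8.33. Without tumour 1 the count of variable genes was 277, without tumour 4 it was 315, and without tumours 2, 3, 5 and 6 it was 440, 428, 378 and 425.

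**Figure D1:**
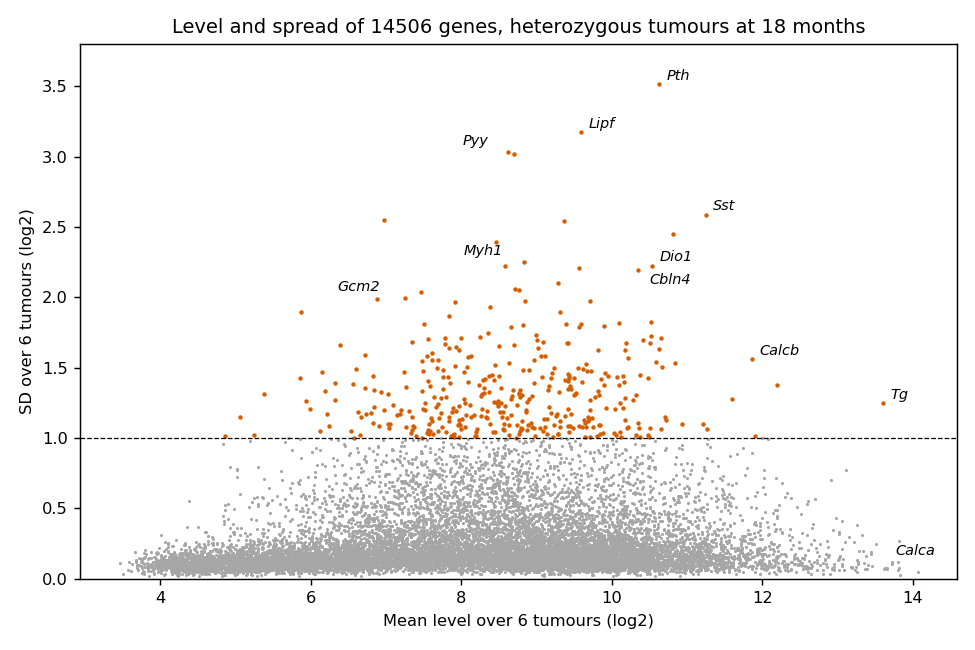
Mean log2 level (horizontal axis) against SD over the 6 tumours (vertical axis, log2) for each gene, with the 372 genes at an SD of at least 1 (dashed line) in orange. Pth lies highest at 3.52 with Lipf and Pyy below it, Calca lies at the far right near 0, and Tg is the brightest gene above the line.

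Tumours 1 and 4 held most of the extremes among the 372 variable genes. Tumour 1 was lowest for 168 of them (45.2%) and highest for 66 (17.7%), whereas over all genes it was lowest for 20.8% and highest for 25.6%. Tumour 4 was highest for 124 (33.3%) and lowest for 92 (24.7%), against 23.7% and 25.5% of all genes. Tumour 3 was highest for 60, tumour 5 for 50, tumour 6 for 48 and tumour 2 for 24. These shares were not tested.

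The 30 genes with the largest SD included the hormone genes Pth, Pyy, Sst and Gcg. Of these, only Sst is on the list of neuropeptides and their receptors. That list had 4 of 25 measured genes variable (16.0%, against 2.56% of all genes), namely Sst, Gipr, Pdyn and Cartpt. Its median SD was 0.25, against 0.17 over all genes. Pth, the gene of parathyroid hormone, had the largest SD of all genes, 3.52. Its level was 14.21, 13.18, 12.68 and 11.10 in tumours 4, 1, 5 and 6 and 6.54 and 6.02 in tumours 3 and 2. The tumours thus fell into 4 with a high and 2 with a low signal of this gene. Pyy, which encodes the gut hormone peptide YY, had an SD of 3.03, with 13.27 in tumour 2 and 11.68 in tumour 6, against 6.47 to 7.03 in the other 4. Sst, the gene of somatostatin, which some C cells also make, had an SD of 2.59, with 14.32, 12.86 and 12.76 in tumours 2, 5 and 1, 10.23 and 10.20 in tumours 4 and 3, and 7.12 in tumour 6. Gcg, which encodes proglucagon, the precursor of glucagon and GLP peptides, had 12.59 in tumour 6 and 6.60 to 9.13 in the other tumours (SD 2.05, and 0.93 without tumour 6). Pyy and Sst were thus highest in tumour 2, Pth in tumour 4 and Gcg in tumour 6.

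Genes of secreted stomach, salivary and airway proteins ranked among them. Lipf, gastric lipase, had 13.27, 11.98 and 11.48 in tumours 1, 2 and 5, 8.83 and 6.70 in tumours 4 and 6 and 5.28 in tumour 3 (SD 3.17). Csap1, common salivary protein 1, had 12.69, 11.57 and 9.69 in tumours 1, 2 and 5 and 5.77 to 6.33 in tumours 3, 4 and 6 (SD 3.02). Scgb3a1, a secretoglobin of airway epithelium, had 13.66 and 13.25 in tumours 1 and 2, 11.76 in tumour 5 and 7.84 in tumour 3. Bpifa1, an airway surface protein, had 12.20 and 12.58 in tumours 1 and 2 and 6.30 in tumour 3. These 4 genes, Sst and the kainate receptor gene Grik3 fell into one group of 6 when variable genes were grouped by likeness. Their median level, relative to each gene's own mean, was 2.84, 2.65, -2.95, -0.96, 0.96 and -2.42 in tumours 1 to 6, so tumours 1 and 2 were high and tumours 3 and 6 low. Scgb1a1, the main secretoglobin of club cells, followed another course, with 10.85, 10.69 and 10.23 in tumours 6, 2 and 1 and 6.39 to 6.80 in tumours 3, 4 and 5 (SD 2.22).

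A few of the 30 genes with the largest SD stood out in a single tumour. Cdh7, a cadherin, had 9.64 in tumour 2 and 4.71 to 6.00 in the others. Alox15, a lipoxygenase of myeloid and epithelial cells, had 11.62 in tumour 6 and 6.90 to 7.38 in the others. Gcm2, the transcription factor that specifies the parathyroid gland, had 11.17 in tumour 4 and 5.85 to 7.17 in the others, and its SD of 1.99 was 0.60 without tumour 4.

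**Figure D2:**
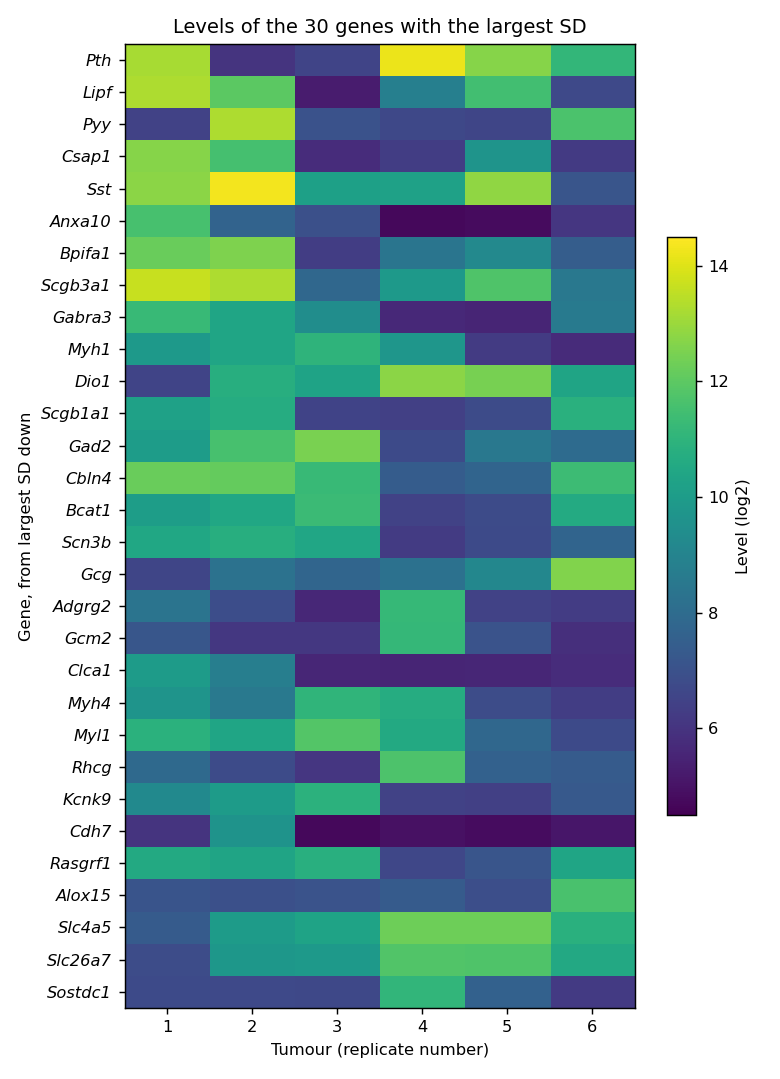
Log2 level (colour) of the 30 genes with the largest SD, from largest SD down, in each of the 6 tumours (columns). Pth is bright in tumours 1, 4, 5 and 6 and dark in tumours 2 and 3, Pyy is bright in tumours 2 and 6, and Gcm2 and Alox15 are bright in 1 tumour each.

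Genes that varied together were found by average linkage of the 372 variable genes on 1 minus Pearson's r over the 6 tumours, with the tree divided at 0.3. There were 6 groups of at least 10 genes, called patterns, which held 333 of the 372 genes, and 39 genes fell outside them. The patterns were formed from these same values, so they describe the 6 tumours and were not tested. Values given for a pattern are medians over its genes of the level minus the gene's own mean over the 6 tumours.

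**Figure D3:**
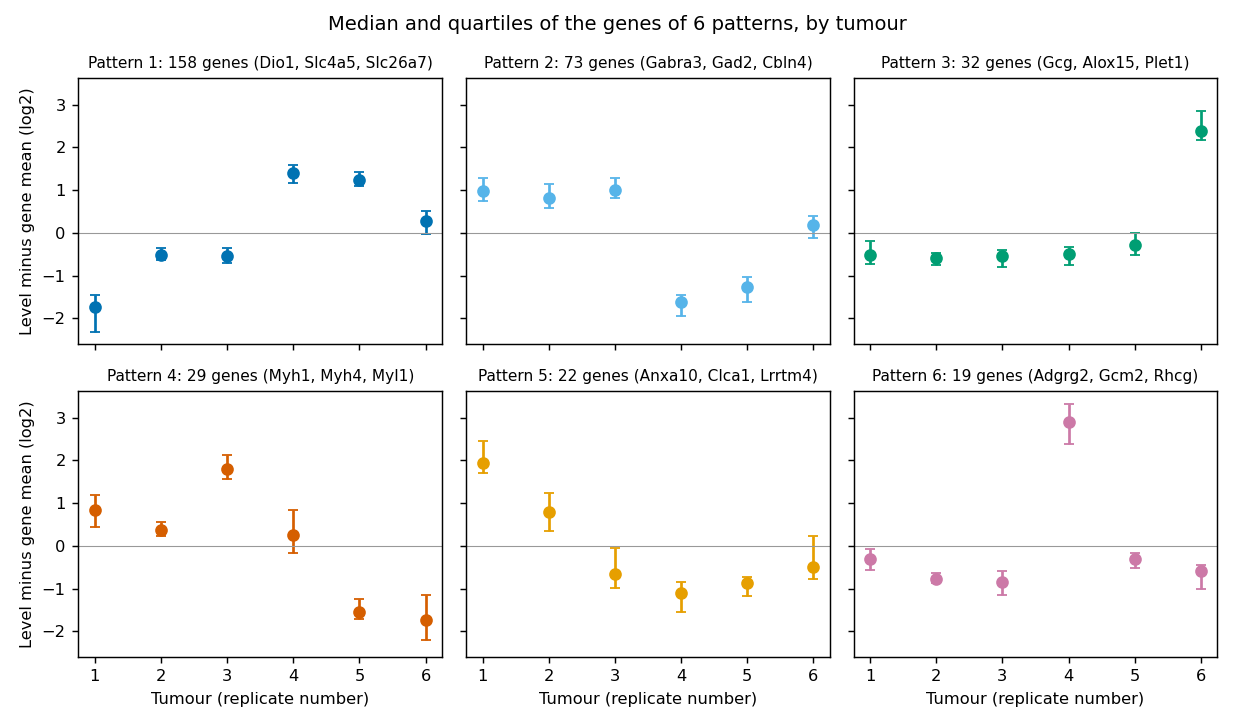
Median (point) and quartiles (bars) over the genes of each of 6 patterns, as log2 level minus the gene's mean, in each tumour. Pattern 1 runs from -1.74 in tumour 1 to 1.41 in tumour 4, pattern 2 is lowest in tumours 4 and 5, pattern 3 is high in tumour 6, pattern 4 is highest in tumour 3, pattern 5 is high in tumour 1 and pattern 6 in tumour 4.

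The first pattern held 158 genes (1.09% of all genes) and contained most of the measured genes of thyroid follicular cells. Its median was -1.74 in tumour 1, -0.51 and -0.54 in tumours 2 and 3, 1.41 and 1.24 in tumours 4 and 5 and 0.29 in tumour 6. Tumour 1 was lowest for 155 of the 158 genes, and tumours 4 and 5 were highest for 104 and 48. Of 14 measured genes of the follicular list, 10 were in this pattern: Tg, Tshr, Slc26a7, Pax8, Foxe1, Duox1, Duox2, Duoxa1, Iyd and Dio1. These 10 made up 6.33% of the pattern.

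Dio1, the deiodinase that activates thyroid hormone, had the largest SD of the pattern, 2.23, which was 1.196 without tumour 1. Its level was 12.78 and 12.45 in tumours 4 and 5, 10.78, 10.35 and 10.29 in tumours 2, 6 and 3, and 6.55 in tumour 1. Slc26a7, an anion transporter that takes part in iodide handling, had 11.80 and 11.73 in tumours 4 and 5, 10.53, 9.89 and 9.79 in tumours 6, 3 and 2, and 6.83 in tumour 1. Iyd, which recovers iodide from iodotyrosines, had 11.62 and 11.69 in tumours 4 and 5 and 6.76 in tumour 1. The transcription factor Pax8, which specifies follicular cells, had 12.35 and 12.04 in tumours 4 and 5, 11.24, 10.45 and 10.27 in tumours 6, 3 and 2 and 7.60 in tumour 1. Foxe1, a forkhead factor of the thyroid, had 10.96 and 10.66 in tumours 4 and 5 and 6.94 in tumour 1. Tshr, the receptor for thyrotropin, had 11.76 in tumour 4 and a little more in tumour 5, against 8.09 in tumour 1. For each of these 6 genes tumours 4 and 5 were the highest pair and tumour 1 the lowest. Duox1, an oxidase that makes the hydrogen peroxide for hormone synthesis, ran the same way, with 10.32 and 9.59 in tumours 4 and 5 and 6.06 in tumour 1.

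Slc5a5, the sodium iodide symporter, was the 1 follicular gene placed in another pattern. It had 11.19, 9.87 and 9.25 in tumours 4, 5 and 2, 7.51 and 7.46 in tumours 3 and 1 and 6.96 in tumour 6. Hhex, a transcription factor of the list, had an SD of 0.30 and levels between 11.20 and 12.10, and Slc26a4 and Tff3 had SDs of 0.43 and 0.06.

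Other genes of the first pattern encode transporters, a channel, claudins and growth regulators. Of 16 measured genes of the epithelial adhesion and keratin list, 2 were in this pattern, Cldn7 and Cldn8 (1.27% of the pattern). Slc4a5, a sodium bicarbonate cotransporter, had 12.30 and 12.29 in tumours 4 and 5 and 7.36 in tumour 1. Kcnj16, an inwardly rectifying potassium channel, had 10.76 and 10.69 in tumours 4 and 5 and 6.11 in tumour 1. The tight junction claudins Cldn7 and Cldn8 reached 10.86 in tumour 4 and 10.16 in tumour 5 and had 6.74 and 5.75 in tumour 1. Trh, the gene of thyrotropin-releasing hormone, deviated somewhat, with 11.55 and 11.22 in tumours 5 and 6, 10.30 in tumour 4 and 6.91 in tumour 1. Cdk6, a kinase that drives entry into the cell cycle, was also in this pattern, with 9.84 and 9.41 in tumours 4 and 5 and 7.07 in tumour 1. It was the 1 member among 30 measured genes of the cell cycle list. Of these 30, 27 were highest in tumour 1, against 25.6% of all genes. The growth factor receptors Fgfr2 and Igf1r were members as well, with 11.33 and 10.22 in tumour 4 and 7.48 and 7.84 in tumour 1. They were 2 of 28 measured genes of the receptor tyrosine kinase list (7.14%, against 1.09% of all genes). The Notch target Hes1, 1 of 16 measured genes of the Notch list, had 9.73 in tumour 4 and 6.95 in tumour 1.

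The first pattern rested on tumour 1 more than on any other tumour. Without tumour 1, 63 of the 158 genes still had an SD of at least 1, and 55 of these 63 stayed in one group. Without tumour 4, 118 did, and without tumour 5, 136 did. The endothelial genes Emcn and Plvap were in the same pattern, and the values of the endothelial list are given below beside the follicular ones.

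The second pattern held 73 genes (0.503%) and included 5 of 16 measured genes of the GABA and neuronal list, 2 of 28 of the C cell list (Calcb and Scg2) and 2 of 25 of the neuropeptide list (Cartpt and Gipr). Its median was 0.99, 0.81 and 1.01 in tumours 1, 2 and 3, -1.62 and -1.26 in tumours 4 and 5 and 0.19 in tumour 6. Tumour 4 was lowest for 63 of its genes and tumour 5 for the other 10. The highest tumour was 3, 1 or 2 for 29, 27 and 15 genes and tumour 6 for 2.

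Genes of GABA signalling and neuronal synapses headed this pattern. Gabra3, which encodes a GABA-A receptor subunit, had 11.25, 10.37 and 9.40 in tumours 1, 2 and 3, 8.57 in tumour 6 and 5.66 and 5.55 in tumours 4 and 5 (SD 2.39). Gad2, a glutamate decarboxylase that makes GABA, had 12.50, 11.59 and 10.04 in tumours 3, 2 and 1, 8.51 and 7.99 in tumours 5 and 6 and 6.76 in tumour 4. Cbln4, a secreted organizer of synapses, had 12.21, 12.15, 11.24 and 11.35 in tumours 1, 2, 3 and 6, against 7.40 and 7.73 in tumours 4 and 5. Syt1, the calcium sensor of vesicle release, had 11.05 in tumour 2 and 6.72 in tumour 4. Of 16 measured genes of the GABA and neuronal list, 5 were in this pattern (Gad2, Gabra3, Cbln4, Syt1 and Syt4), which made up 6.85% of it.

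Further members of the second pattern with large SDs encode channels, enzymes and signalling proteins. Of 23 measured genes of the sodium, potassium and calcium channel list, 2 were variable (8.7%, against 2.56% of all genes). Of these, 1, Scn3b, was in this pattern (4.35% of the list). Scn3b, a sodium channel beta subunit, had 10.44, 10.77 and 10.41 in tumours 1, 2 and 3, 7.71 in tumour 6 and 6.23 and 6.75 in tumours 4 and 5. Kcnk9, a background potassium channel, had 10.93 in tumour 3 and 6.46 and 6.38 in tumours 4 and 5. Rasgrf1, an exchange factor of Ras, had 10.33 to 10.82 in tumours 1, 2, 3 and 6, against 6.63 and 7.15 in tumours 4 and 5. Bcat1, the cytosolic aminotransferase of branched-chain amino acids, had 10.08 to 11.32 in tumours 1, 2, 3 and 6, against 6.46 and 6.79 in tumours 4 and 5. Gipr, the receptor of the gut hormone GIP, had 11.29, 11.23 and 10.77 in tumours 1, 2 and 3, 10.28 in tumour 6 and 8.56 and 8.75 in tumours 4 and 5. Tumours 4 and 5 were the lowest pair for all of these genes, and tumour 6 lay with tumours 1, 2 and 3 for Rasgrf1 and Bcat1 and below them for Scn3b. Alk, a receptor tyrosine kinase picked here after its values were seen, had 10.36, 9.47 and 9.65 in tumours 1, 2 and 3, 8.72 in tumour 6 and 7.27 and 7.13 in tumours 4 and 5.

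Calcb and Scg2 were the 2 C cell genes of the second pattern, and they contrasted with Calca. Calcb, which encodes beta-CGRP, had 12.81, 13.31 and 13.04 in tumours 1, 2 and 3, 12.18 in tumour 6 and 9.72 and 10.10 in tumours 4 and 5 (SD 1.56). Scg2, secretogranin II of the dense-core granules, had 12.65, 13.41 and 13.55 in tumours 1, 2 and 3, 12.42 in tumour 6 and 10.09 and 11.01 in tumours 4 and 5 (SD 1.37). Rit2, a small neuronal GTPase, had 9.96, 8.96, 9.99 and 10.02 in tumours 1, 2, 3 and 6 and 6.69 and 7.29 in tumours 4 and 5. The second pattern was less tied to 1 tumour than the first, and 42 of its 73 genes kept an SD of at least 1 without tumour 4, the lowest count over the 6 tumours left out.

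Promoter sequences, from 250 bases before to 50 bases after the start site, were at hand for 59 of the 73 genes (RefSeq, GRCr8). The motifs searched were chosen after the patterns had been seen. The palindromic cAMP response element TGACGTCA was found in 6 of the 59 (10.2%), namely those of Rit2, Scg2, Lrrtm2, Kif5c, Cartpt and Mapk10, against 1.91% of all 27457 promoters. The promoters of Scg2 and Rit2 are printed because these 2 genes had large SDs among the 6, with the element in capitals. The promoter of Scg2 lies at chr9:88256817-88257116 on the minus strand, with the element starting 123 bases before the start site, and that of Rit2 at chr18:23196088-23196387 on the minus strand, with the element starting 94 bases before it.
Scg2: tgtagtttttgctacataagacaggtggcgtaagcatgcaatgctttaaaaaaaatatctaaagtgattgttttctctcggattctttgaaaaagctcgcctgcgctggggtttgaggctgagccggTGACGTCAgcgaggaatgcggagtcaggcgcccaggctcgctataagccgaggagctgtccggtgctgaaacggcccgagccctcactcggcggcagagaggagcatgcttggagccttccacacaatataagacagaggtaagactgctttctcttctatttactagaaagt
Rit2: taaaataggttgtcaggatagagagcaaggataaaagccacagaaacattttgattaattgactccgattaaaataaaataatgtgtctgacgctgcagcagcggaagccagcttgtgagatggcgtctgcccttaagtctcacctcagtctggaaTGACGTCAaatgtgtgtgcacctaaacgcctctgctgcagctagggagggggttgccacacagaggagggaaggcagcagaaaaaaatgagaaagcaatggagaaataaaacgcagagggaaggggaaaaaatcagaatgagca
These matches describe letters in the windows, and binding of a factor was not measured.

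The third pattern held 32 genes (0.221%), and all 32 were highest in tumour 6. Its median was 2.38 in tumour 6 and between -0.59 and -0.28 in the other 5. The pattern mixed genes of lymphocytes, granulocyte attraction, stratified epithelium and red cells with the hormone gene Gcg. Gzma, a granzyme of cytotoxic lymphocytes, had 9.75 in tumour 6 and 5.46 to 6.16 in the others. Nkg7, of the same cells, had 11.03 in tumour 6 and 6.39 to 7.84 in the others. Ccl3, a chemokine, had 10.63 in tumour 6 and 6.72 to 6.96 in the others. Tumour 6 thus lay far above a narrow range for these genes. Plet1, an epithelial surface protein, had 11.05 in tumour 6 and 6.27 to 7.87 in the others, and the keratins Krt4 and Krt13 had 9.43 and 9.62 in tumour 6 and at most 7.14 and 7.35 in the others. Jchain, the joining chain of secreted immunoglobulins, had 9.27 in tumour 6 and 5.50 to 7.53 in the others. The chemokine gene Cxcl2, the antibacterial Lcn2 and the complement gene C3 were members too, with 8.44, 11.32 and 10.24 in tumour 6 and at most 5.61, 8.99 and 8.48 in the others. Alas2, the first enzyme of heme synthesis in red cells, had 10.08 in tumour 6 and 6.65 to 7.54 in the others. Without tumour 6, 0 of the 32 genes had an SD of at least 1.

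The fourth pattern held 29 genes (0.20%) and consisted largely of skeletal muscle genes. Its median was 1.80 in tumour 3, 0.85, 0.38 and 0.26 in tumours 1, 2 and 4, and -1.54 and -1.74 in tumours 5 and 6. Tumour 3 was highest for 23 genes and tumour 1 for 6, and the lowest tumour was 6, 5 or 4 for 20, 7 and 2 genes. Of 20 measured genes of the skeletal muscle list, 16 were in this pattern, which made up 55.2% of it.

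Myh1, a fast myosin heavy chain, had 11.00, 10.37, 9.89 and 9.75 in tumours 3, 2, 1 and 4 and 6.24 and 5.74 in tumours 5 and 6 (SD 2.25). Myh4, the heavy chain of the fastest fibres, had 11.04 and 10.70 in tumours 3 and 4, 9.67 and 8.53 in tumours 1 and 2 and 6.84 and 6.30 in tumours 5 and 6. Acta1, skeletal alpha-actin, had 12.38 in tumour 3, 11.54, 11.11 and 10.77 in tumours 1, 4 and 2 and 8.46 and 8.20 in tumours 5 and 6. Tumours 5 and 6 were the lowest pair for each of the 3 genes. Atp2a1, the calcium pump of fast muscle, had 11.71 in tumour 3 and 7.13 in tumour 6, and Pygm, muscle glycogen phosphorylase, had 11.19 and 6.32 there. Ttn, the giant spring protein titin, had 10.19 in tumour 3, 9.67 in tumour 1 and 5.99 in tumour 6. Probes for near-identical myosin genes may share signal, which was not tested. The pattern also held genes that are not of muscle: Nefl, a neurofilament gene, had 9.88 in tumour 1 and 6.38 in tumour 6, and Gabrg3, a GABA-A receptor subunit, had 9.14 in tumour 3 and at most 6.95 in the others.

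Promoters were at hand for 22 of the 29 genes of the fourth pattern. The binding motif of the muscle factor MEF2 was found on either strand in 6 of the 22 (27.3%), against 3.37% of all promoters. The 6 were Myh1, Myh4, Ttn, Xirp2, Ampd1 and Klhl41. The E-box CAGCTG, the letters of muscle bHLH factors, was found in 9 of the 22 (40.9%), against 15.1% of all promoters, and it was as frequent in the fifth pattern, in 8 of 20 (40.0%). The TATA letters TATAAA were found in 7 of the 22 (31.8%) and in 9 of 26 (34.6%) of the third pattern, against 14.3% of all promoters. The promoters of Myh1 and Myh4, which had the largest SDs of the pattern, are printed with the MEF2 match in capitals. That of Myh1 lies at chr10:52384662-52384961 on the plus strand with the match starting 212 bases before the start site, and that of Myh4 at chr10:52421898-52422197 on the plus strand with the match starting 196 bases before it.
Myh1: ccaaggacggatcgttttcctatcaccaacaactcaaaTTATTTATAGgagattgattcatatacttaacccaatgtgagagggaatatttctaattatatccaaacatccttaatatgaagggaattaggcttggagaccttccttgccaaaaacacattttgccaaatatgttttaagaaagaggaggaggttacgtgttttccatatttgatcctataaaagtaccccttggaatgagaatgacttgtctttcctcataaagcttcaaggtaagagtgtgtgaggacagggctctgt
Myh4: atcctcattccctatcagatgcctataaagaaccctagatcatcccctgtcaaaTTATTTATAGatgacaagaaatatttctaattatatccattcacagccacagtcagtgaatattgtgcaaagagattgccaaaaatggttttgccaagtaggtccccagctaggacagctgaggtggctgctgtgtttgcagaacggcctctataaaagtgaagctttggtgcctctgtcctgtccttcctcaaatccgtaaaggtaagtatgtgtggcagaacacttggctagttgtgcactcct
The neighbouring genes hold the same 10 letters at the match, and no binding was measured.

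The fifth pattern held 22 genes (0.152%), and tumour 1 was highest for all 22. Its median was 1.94 in tumour 1, 0.78 in tumour 2 and between -1.11 and -0.50 in tumours 3 to 6. It mixed genes of mucosal surfaces with neuronal genes. Anxa10, an annexin of stomach epithelium, had 11.60 in tumour 1, 7.69 and 6.92 in tumours 2 and 3 and 4.72 to 6.08 in tumours 4, 5 and 6 (SD 2.55, and 1.303 without tumour 1). Clca1, a secreted protein of mucus cells, had 9.99 in tumour 1, 8.79 in tumour 2 and 5.54 to 5.79 in the other 4. Lrrtm4, a synaptic adhesion protein, had 9.63 and 9.26 in tumours 1 and 2 and 5.81 to 7.01 in the others. Nalcn, the sodium leak channel of neurons, had 10.84 in tumour 1, 8.55 in tumour 2 and 6.46 in tumour 4, and its second probe set ran the same way, with 9.92, 6.98 and 5.19. Elavl2, a neuronal RNA-binding protein, had 9.66 and 8.96 in tumours 1 and 2 and 5.52 in tumour 4. Ptprt, a receptor phosphatase, had 11.16 in tumour 1 and 6.92 to 8.37 in the others. Hdc, which makes histamine, had 10.11 and 8.93 in tumours 1 and 2 and 6.46 to 7.26 in the others. Tumour 2 thus shared the high level of tumour 1 for Clca1, Lrrtm4, Elavl2 and Hdc more than for Ptprt. Without tumour 1, 9 of the 22 genes still had an SD of at least 1, and 5 of these 9 stayed together. They then lay in a group of 89 genes that held 66 genes of the second pattern. Without tumour 3, 21 genes of the fifth pattern lay in a group of 124 genes with 64 of the second. The fifth pattern was thus not always separate from the second.

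The sixth pattern held 19 genes (0.131%), and all 19 were highest in tumour 4. Its median was 2.90 in tumour 4 and between -0.85 and -0.30 in the other 5. It included the parathyroid transcription factors Gcm2 and Gata3. Gata3 had 10.99 in tumour 4 and 7.05 to 7.82 in the others. Kl, which encodes klotho, the co-receptor of FGF23 in kidney and parathyroid, had 10.99 in tumour 4 and 6.57 to 7.28 in the others. Rhcg, an ammonium transporter, had 11.71 in tumour 4 and 6.10 to 7.90 in the others, and Sostdc1, a secreted BMP antagonist, had 11.09 and 6.22 to 7.59. Adgrg2, an adhesion G protein-coupled receptor, had 11.18 in tumour 4, 8.36 in tumour 1 and 5.61 to 6.88 in the others. Tpx2, a spindle assembly factor, had 11.23 in tumour 4 and 6.63 to 8.44 in the others. Egf, epidermal growth factor, had 10.94 in tumour 4 and 7.77 to 8.43 in the others, and Ucp1, the uncoupling protein of brown fat, had 9.94 and 5.87 to 6.38. Without tumour 4, 2 of the 19 genes had an SD of at least 1.

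Pth was grouped apart from Gcm2, although both were highest in tumour 4, followed by tumours 1 and 5. Pth was high in tumours 1, 4, 5 and 6, whereas Gcm2 had at most 7.17 outside tumour 4. In tumour 6 Pth had 11.10 and Gcm2 its lowest level, 5.85. Pth fell into a small group with Crtac1, Spock3, Gria1, Fgf14 and Cnpy1, whose median was 0.60, 0.27, 1.08 and 0.95 in tumours 1, 4, 5 and 6 and -1.46 and -1.39 in tumours 2 and 3. Of the 7 measured genes of the parathyroid list 4 were variable (57.1%, against 2.56% of all genes). They were Pth, Gcm2, Gata3 and Pvalb, which is a muscle gene too and lay in the fourth pattern. Vdr, the vitamin D receptor, had 11.23 in tumour 4 and 8.30 to 9.62 in the others. Casr, also on this list, is a gene of C cells as well and was even. The mean of the parathyroid list was 10.63 in tumour 4 and 7.99 to 9.05 in the others, and its SD of 0.97 was 0.45 without tumour 4.

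Among the genes outside the patterns were further neuronal ones. Gad1, the other glutamate decarboxylase, had 11.23 and 10.79 in tumours 1 and 6 and 7.97 in tumour 2, and so did not follow Gad2. Vgf, a secreted neuropeptide precursor, had 9.08 in tumour 1 and 5.59 in tumour 4. Cacnb4, a calcium channel beta subunit, had 9.95, 9.59 and 9.40 in tumours 1, 3 and 6 and 6.42 in tumour 2. These 3 lay in one group of 8 genes with Gabrq, Opcml, Mybpc1, Synpr and Capsl. The surfactant genes Sftpa1 and Sftpd, named after their values were seen, had 11.11 and 11.68 in tumour 3 and 7.67 and 9.28 in tumour 1. Pdyn, the gene of prodynorphin, had 9.55 and 8.19 in tumours 3 and 6 and 6.81 to 7.16 in the others.

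Of the C cell list, which also holds general neuroendocrine genes, 28 were measured and 4 had an SD of at least 1 (14.3%, against 2.56% of all genes): Sst, Calcb, Scg2 and Vgf. The median SD of the list was 0.50, against 0.17 over all genes. The mean of the list was 10.75, 10.61 and 10.60 in tumours 1, 2 and 3, 9.91 and 10.26 in tumours 4 and 5 and 10.47 in tumour 6. Tumour 4 was lowest for 16 of the 28, and over all genes it was lowest for 25.5%. Chga, chromogranin A, ran the other way, with 13.15 in tumour 4 and 12.25 to 12.58 in the others. Ret, the receptor kinase that is often mutated in human medullary thyroid carcinoma, had levels between 10.80 and 11.48 (SD 0.25). Nkx2-1, a transcription factor of thyroid cells, had levels between 10.05 and 10.63 (SD 0.23). Cdkn1b, the mutated gene, had 11.10, 10.97, 10.96, 10.65, 10.88 and 10.96 in tumours 1 to 6 (SD 0.15), close to the median SD of all genes. The array does not tell the mutated and the intact transcript apart here.

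**Figure D4:**
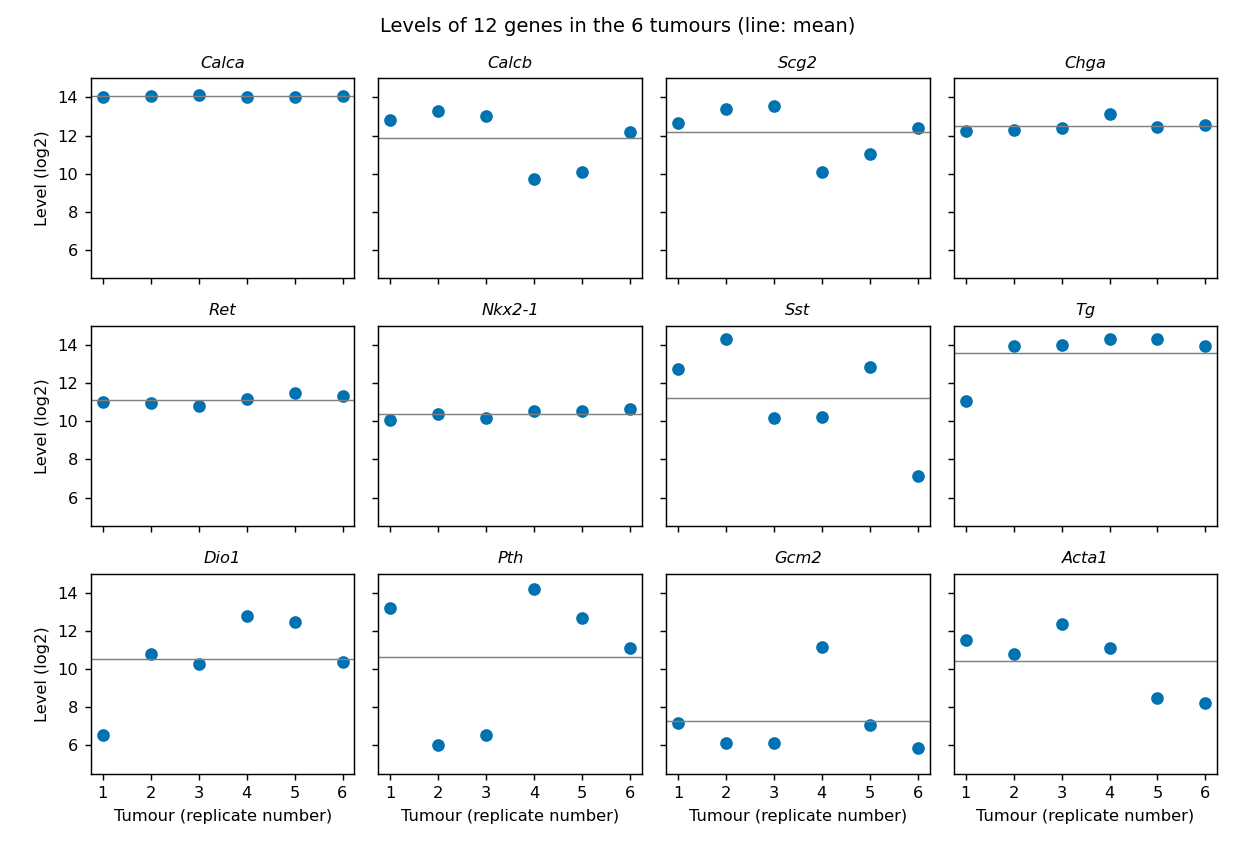
Log2 level of 12 genes in each of the 6 tumours (points), with the mean of the 6 as a line, on a shared vertical scale. Calca, Ret and Nkx2-1 are flat, Calcb and Scg2 are low in tumours 4 and 5, Dio1 and Tg are lowest in tumour 1, Gcm2 is high in tumour 4, and Acta1 is low in tumours 5 and 6.

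Other lists were read in the same way, with their mean in each tumour. The 36 lists, 19 of cell types and 17 of cell programmes, had 578 of 644 entries measured, and 7 of them had a list mean with an SD of at least 0.5. Of the follicular list, 11 of 14 measured genes were variable (78.6%, against 2.56% of all genes), with a median SD of 1.44. Its mean was 7.58 in tumour 1, 9.38, 9.13 and 9.55 in tumours 2, 3 and 6 and 10.76 and 10.60 in tumours 4 and 5. The skeletal muscle list had 17 of 20 genes variable (85%) and a median SD of 1.5. Its mean was 10.43 in tumour 3, 9.51, 9.06 and 8.90 in tumours 1, 4 and 2 and 7.08 and 6.88 in tumours 5 and 6. The GABA and neuronal list had 7 of 16 genes variable (43.8%). Its mean was 8.69, 8.48 and 8.68 in tumours 1, 2 and 3, 7.99 in tumour 6 and 6.80 and 7.19 in tumours 4 and 5. The follicular mean was thus highest where the neuronal mean was lowest, in tumours 4 and 5, while in tumour 1 the follicular mean was lowest and the neuronal mean among the highest.

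The endothelial list moved the same way as the follicular one over a smaller range. Its mean was 7.88 in tumour 1, 8.21, 8.33 and 8.55 in tumours 2, 3 and 6 and 9.42 and 9.21 in tumours 4 and 5 (SD 0.60). Of its 19 measured genes 2 were variable (10.5%, against 2.56% of all genes). Tumour 4 was highest for 18 of the 19 and tumour 1 lowest for 15. Over all genes, tumour 4 was highest for 23.7% and tumour 1 lowest for 20.8%. Kdr, the main receptor of VEGF, had 10.34 and 9.96 in tumours 4 and 5 and at most 8.60 in the others. Flt1, another VEGF receptor, had 11.11 and 10.80 in tumours 4 and 5 and 8.95 to 9.74 in the others. The list of epithelial adhesion genes ran in the same direction, with 10.46 and 10.47 in tumours 4 and 5 and 9.49 in tumour 1. The follicular and endothelial means therefore stand beside every gene of the first and second patterns, and their part in those genes' spread was not tested.

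The erythroid list had 2 of 6 genes variable (33.3%, against 2.56% of all genes). Its mean was 9.86 in tumour 6 and 7.66 to 8.29 in the others, and its SD of 0.81 was 0.26 without tumour 6. Hbb, a beta-globin, had 13.10 in tumour 6 and 10.44 to 11.32 in the others. The globin genes are close copies and may share probe signal, which was not tested. The list of squamous and airway epithelium had 8.21 in tumour 6, 7.70 and 7.62 in tumours 1 and 2 and 6.42 in tumour 3, with 5 of 10 genes variable (50%). The T and NK cell list had 7.63 in tumour 6 and 6.57 to 6.82 in the others, and the macrophage list 8.88 and 8.06 to 8.38. Over all genes tumour 6 was highest for 12.1% and lowest for 14.3%. It was highest for 9 of 15 T and NK cell genes and lowest for 3, and highest for 12 of 15 macrophage genes. In these lists 3 of 15 and 1 of 15 genes were variable (20% and 6.67%, against 2.56% of all genes). These list means stand beside the genes of the third pattern, and blood, immune and epithelial content was not measured otherwise. The adipocyte list had 8.66 in tumour 4 and 7.18 to 7.77 in the others, beside the genes of the sixth pattern.

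Cell cycle genes were highest in tumour 1. The list mean was 8.42 in tumour 1 and 7.54 to 7.84 in the others. Of its 30 measured genes 1 was variable (3.33%, near the 2.56% of all genes), Cdk6, which was lowest in tumour 1. Top2a, a topoisomerase of dividing cells, had 9.54 in tumour 1 and 6.68 to 8.01 in the others. Rrm2, which makes deoxynucleotides, had 8.71 in tumour 1 and 6.55 to 7.84 in the others, and the checkpoint kinase Bub1 had 7.80 and 5.68 to 6.59. Tpx2, described above, was at 8.44 in tumour 1 and higher in tumour 4.

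Small SDs of the list mean were not confined to 1 kind of list. They were 0.09 for thymocyte genes and for mesenchymal and EMT factors and 0.12 for cartilage and bone. Among lists of cell functions, the SD of the list mean was 0.05 for oxidative phosphorylation, 0.05 for p53 targets and 0.06 for ribosomal proteins. It was 0.09 for immediate early genes and 0.11 for the unfolded protein response. In each of these function lists 0 genes had an SD of at least 1, against 2.56% of all genes. With the median of members in place of their mean, the SD was 0.17 for p53 targets, 0.12 for ribosomal proteins and 0.24 for immediate early genes, and after centring of the arrays it was 0.08 for oxidative phosphorylation. In all, 15 of the 36 lists held no variable gene. With 2.56% of all genes variable, a short list may hold none, so this count was not read as evenness. Within the unfolded protein response list, Herpud1 and Creld2, both induced by stress of the endoplasmic reticulum, had 11.57 and 11.32 in tumour 4 and 9.68 and 9.90 in tumour 1. Within the immediate early list, Myc, a growth regulator, had 8.05 and 7.99 in tumours 4 and 5 and 6.53 in tumour 1, whereas Egr1 had 10.91 in tumour 1 and 9.55 in tumour 5. Evenness of a list mean thus did not mean that each of its genes was even.

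**Figure D5:**
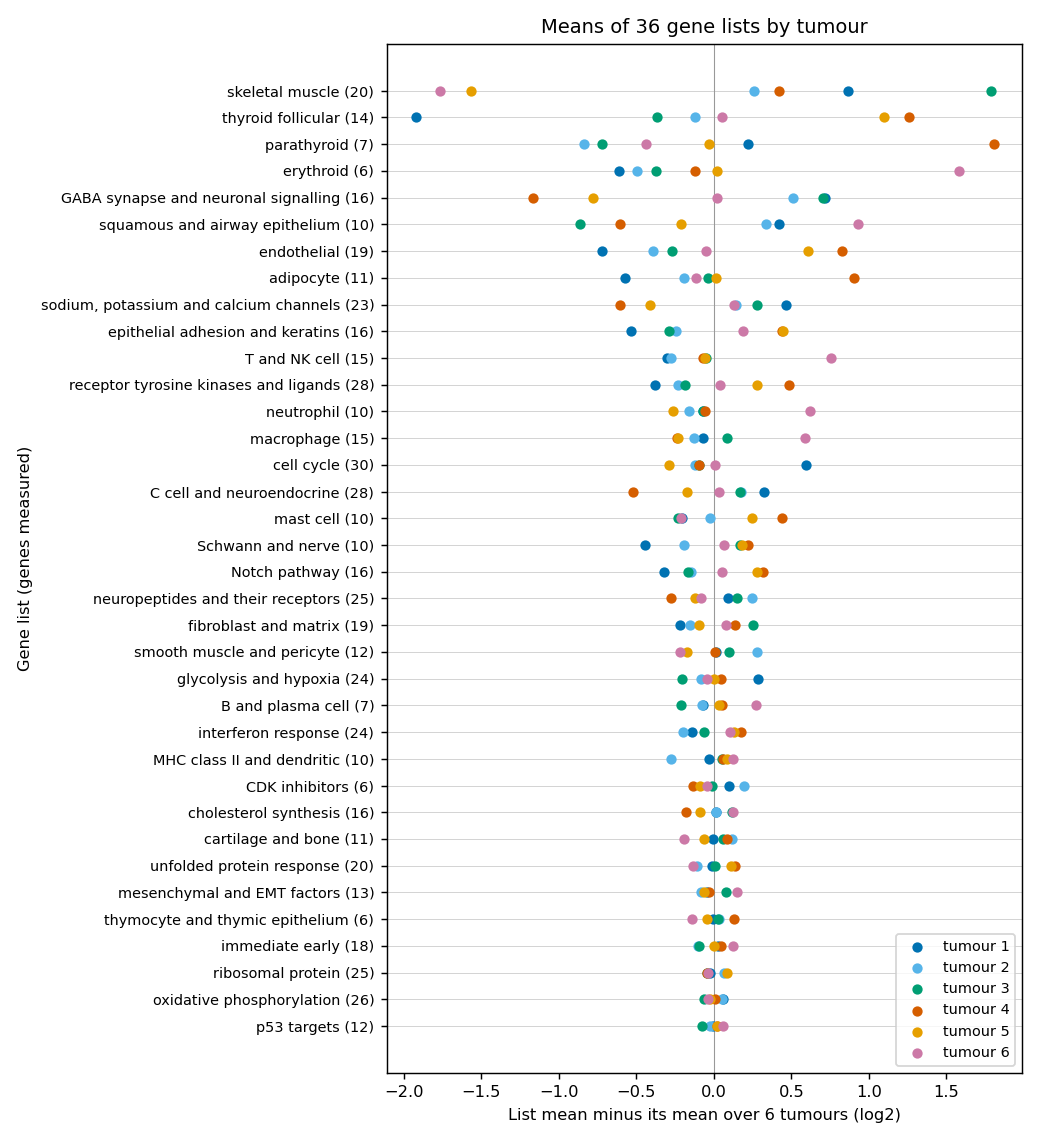
Mean log2 level of each of 36 gene lists in each tumour (coloured points), shown relative to the list's mean over the 6 tumours, with the number of genes measured in brackets and lists ordered by spread. Skeletal muscle, follicular and parathyroid lists spread widest, and oxidative phosphorylation and p53 target lists lie within a narrow band around 0.

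Of the 372 variable genes, 7 had more than 1 probe set. The second probe set of Nalcn, Psat1, Gsta4 and Mecom ran the same way as the first over the tumours. Psat1, an enzyme of serine synthesis, had 12.33 in tumour 4 and 8.13 in tumour 1 on the probe set used and 9.68 and 7.44 on the other. Cybrd1, an iron reductase, had an SD of 1.62 on the probe set used and 0.25 on the other. S100a11, a calcium-binding protein, had 4 probe sets with SDs of 1.28, 1.06, 0.30 and 0.26, and the 2 dimmer ones did not follow the brighter ones. H19, an imprinted RNA, had SDs of 1.25 and 0.69.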

How the data were processed

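The RNA of 6 tumours was hybridised to Affymetrix arrays. Per the labels' protocols, it was extracted with the RNeasy Mini kit and DNase, and NuGEN's Ovation PicoSL and Encore Biotin kits amplified and labelled it. The authors deposited log2 values. The submitters' processing notes name RMA and, as software, Affymetrix Expression Console (version 1.3.0.187). The genome build behind the probe sets was not given in the sources used here. Detection calls were not used. Having 6 arrays limits precision.

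Of 29214 probe sets, 15310 had 1 gene symbol in the platform annotation, 323 several and 13581 none. These gave one value per gene, and for 527 genes with several probe sets the brightest over the 6 tumours was taken. The gene IDs of 14481 were found in RefSeq (GRCr8), and 0 symbols differed.

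For each gene the mean and SD over the 6 tumours were computed with Python 3.11.15, NumPy 2.4.6, pandas 2.3.3 and SciPy 1.17.1. A gene was called variable at an SD of at least 1. Variable genes were grouped by average linkage on 1 minus Pearson's r, with the tree divided at 0.3 and groups of at least 10 described. Principal components were taken of centred genes. A list was summarised by the mean of its measured genes. The procedure was also run on simulated arrays. No result of that run is given here, so it is no evidence that patterns of similar shape can be told apart. No test between groups was made, since the tumours form 1 group and genes were ranked by their own values. Single tumours that stood apart were found with Dixon's criterion.

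Genes named were the 20 highest means, the 30 largest SDs, the 6 largest SDs of each pattern, up to 4 of each list with the largest SD, 10 even genes among the brightest 10%, and Calca, Calcb, Ret, Chga, Tg, Cdkn1b, Nkx2-1, Gcm2 and Pth. Other genes in the text were chosen after their values were seen. The tumours, the lists and this rule were chosen with earlier results of these data known. Alternatives covered the probe set, scaling, filters on dim genes at the 30th and 50th percentile, the measure of spread, the grouping, the summary of lists and each tumour left out.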

Additional observations from a re-analysis of the deposited data

Results flagged for a closer look

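A value is given here where 1 tumour stood apart from the other 5, that is where its gap to the nearest tumour, divided by the range over the 6, was above Dixon's critical value. Chance gives this for about 1 in 20 genes, and it held for 1000 of all genes (6.89%). It also held for 35 of 203 named genes and 4 of 36 list means. Most named genes were picked by their SD or pattern, which can raise their count, so that count is not set against chance. The numbers after each gene are these shares of the range.

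Tumour 6 stood apart as the highest for 20 of the 39 items. The shares were 0.938 for Ccl3, 0.899 for Alox15, 0.665 for Plet1 and 0.735 for Krt13. Among genes of cytotoxic lymphocytes they were 0.837 for Gzma, 0.867 for Gzmb, 0.843 for Gzmk, 0.783 for Prf1 and 0.687 for Nkg7, and the granzymes are related genes. Among neutrophil genes they were 0.824 for S100a9, 0.807 for Mmp8 and 0.684 for Cxcr2, and for Mmp9, a matrix protease, 0.8. Among red cell genes they were 0.743 for Alas2, 0.741 for Slc4a1, 0.669 for Hbb and 0.664 for Hbb-b1. The list means gave 0.762 for T and NK cells, 0.763 for neutrophils and 0.713 for erythroid genes. Over all genes tumour 6 was highest for 12.1% and lowest for 14.3%. It was highest for 9 of the 15 measured T and NK cell genes and lowest for 3. Of these 15, 13 had a mean below the median of all genes. For the neutrophil list tumour 6 was highest for 6 of 10 genes and lowest for 1. The neutrophil genes were dim, with a list mean of 6.47 in tumour 6 and 5.58 to 5.79 in the others.

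Tumour 4 stood apart as the highest for 9 items. The shares were 0.752 for Gcm2, 0.805 for Gata3, 0.838 for Kl, 0.679 for Rhcg, 0.718 for Sostdc1, 0.794 for Egf and 0.874 for Ucp1. They were 0.635 for Chga and 0.728 for Twist1, a mesenchymal transcription factor with 8.31 in tumour 4 and 7.35 to 7.61 in the others.

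Tumour 1 stood apart as the lowest for Tg (0.877) and Tnfrsf17 (0.707), a plasma cell receptor with a dim signal of 5.50 in tumour 1 and 5.79 to 5.91 in the others. It stood apart as the highest for Ptprt (0.658), Gapdh (0.667), the neutrophil gene Ngp (0.752) and the mean of the cell cycle list (0.662). Gapdh had 13.95 in tumour 1 and 13.61 to 13.72 in the others.

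Tumour 2 stood apart as the highest for Cdh7 (0.738) and for Psmb11 (0.711), a thymic proteasome subunit with a dim signal of 6.05 against 5.79 to 5.86. It was the lowest for RT1-Bb (0.673), an MHC class II chain with 8.49 against 9.24 to 9.61. Tumour 3 stood apart for Cdh19 (0.795), a cadherin of Schwann cells with 6.07 against 5.11 to 5.31. Causes of these values were not tested.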

How the results depend on the processing

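The count of 372 variable genes was between 293 and 372 under other probe sets, scalings, filters and a scaled median absolute deviation, which gave 345 with 255 genes shared. The first component held 60.5% to 66.8% of the variance under these settings. The largest pattern grew from 158 genes to 338 when genes with an SD of at least 0.75 were grouped, and this group contained all 158. The 7 list means with an SD of at least 0.5 became 11 when members were summarised by their median. The largest pattern held 111 genes under complete linkage and 142 to 158 under the other alternatives with all tumours. Patterns of at least 10 genes numbered 10 under complete linkage and 10 at the SD of 0.75. They numbered 6 with ranks in place of levels and with the tree divided at 0.2 or 0.4. With the mean of all probe sets, Gnas averaged 12.22 and 17 of the 20 brightest genes stayed in that set.

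Leaving out 1 tumour gave 277 to 440 variable genes, a median SD of 0.155 to 0.175, a first component of 57.5% to 70.9%, a largest pattern of 89 to 206 genes, 18 to 20 of the 20 brightest genes kept and 5 to 8 list means with an SD of at least 0.5. The 89 genes came without tumour 1 and shared 0 genes with the 158, so the largest pattern was then another one. The third and sixth patterns rest on tumours 6 and 4, and the fifth joined the second without tumour 3, as given above.

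The SD of named genes moved by over 1.5 times in 21 of 1159 recomputations with all tumours, mostly for the most even genes after rescaling, where Calca had 0.07 or 0.10, and in 74 of 1218 with 1 tumour left out. No paired analysis was possible because the tumours form a single group. The 6 arrays limit how well patterns can be told apart, and signals near the bottom or top of the array have no separate measure of error here.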
